A study of Mus musculus and blank sample with 768 samples.

Results

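Prostaglandins are made and removed in steps that different cells can divide between them, and 7 genes of these steps were followed here in single mouse cells. They were taken by name from the rows of both deposited read count tables: Ptgs1, Ptgs2, Ptgis, Ptges, Ptgr1, Hpgd and Slco2a1, which are 7 of 51734 gene symbols. All 7 were found in both tables. Cells came from tumours, lymph nodes (LN) and blood, and the gate combined CD45, a leukocyte surface protein, with CD31, an endothelial one, and GFP. The tumour groups are GFP+ endothelial cells (EC; CD45-, CD31+, GFP+; 84 cells kept on plate KM3 and 85 on plate KM4), GFP- EC (CD45-, CD31+, GFP-; 84 cells, plate KM2) and macrophages (CD45+, CD31-, GFP-; 81 cells, plate KM1). The LN groups are GFP+ EC (98 cells, pools A, B and C), GFPlow EC (79 cells, pools B, C and D) and GFP- EC (74 cells, pools A, B and C), all CD45- and CD31+. The labels name the GFP+ EC as cells of the Csf1r lineage and the GFPlow EC as potential members of it. Csf1r encodes a growth factor receptor of macrophages. The tumour model, the age and strain of the mice and the construct that turns GFP on are not given in the sources used here. The labels do not tie cells to animals, so each group is 1 sample, no difference could be tested against a spread between animals, and no p-value is given.

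Prostaglandins are lipid signals that act close to where they are made. Phospholipases free arachidonic acid from membranes, cyclooxygenases turn it into an unstable intermediate, and a terminal synthase makes a particular prostaglandin from that. Blood vessel endothelium is known as a source of prostacyclin, which widens vessels and keeps platelets from clumping. The signal ends when a transporter carries prostaglandins into a cell and enzymes there oxidise and then reduce them. Ptgs1 and Ptgs2 encode the cyclooxygenases, Ptgis prostacyclin synthase and Ptges an inducible prostaglandin E synthase. Slco2a1 encodes the prostaglandin transporter, Hpgd the dehydrogenase that starts inactivation, and Ptgr1 a reductase that works on the oxidised products and also oxidises leukotriene B.

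In outline, the clearance genes Ptgr1 and Slco2a1 were the members found in most tumour EC, and the synthesis genes were found in fewer cells and in a larger share of the GFP- gate. Tumour GFP- EC also had more detected genes per cell, whose part in these shares was not tested. In the LN the members were divided between kinds of EC. Ptgr1 was found in many GFP+ and GFPlow cells, of which few or none had reads of Slco2a1 or Ptgs1, and GFP- cells more often had reads of Slco2a1 and Ptgs1 than of Ptgr1. Hpgd, the first enzyme of inactivation, was without a read in any tumour EC.

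The promoters of the 4 members that carry these contrasts are shown first, because the files summarise each gene over its whole length and these stretches place its start. They are the RefSeq promoter windows on GRCm38.p6, 250 bases before to 50 bases after the annotated start, written in the direction of the gene. They lie at chr2:36230176-36230475 (plus strand, Ptgs1), chr1:150099781-150100080 (plus, Ptgs2), chr4:58987029-58987328 (minus, Ptgr1) and chr9:103008237-103008536 (plus, Slco2a1). Capitals mark matches, on either strand, to the 7 motifs searched.
Ptgs1: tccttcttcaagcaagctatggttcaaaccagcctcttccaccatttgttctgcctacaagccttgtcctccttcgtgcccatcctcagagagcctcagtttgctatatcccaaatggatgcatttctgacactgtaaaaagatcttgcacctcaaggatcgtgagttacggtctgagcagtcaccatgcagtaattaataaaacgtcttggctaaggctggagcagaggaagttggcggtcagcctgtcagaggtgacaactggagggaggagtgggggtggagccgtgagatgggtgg
Ptgs2: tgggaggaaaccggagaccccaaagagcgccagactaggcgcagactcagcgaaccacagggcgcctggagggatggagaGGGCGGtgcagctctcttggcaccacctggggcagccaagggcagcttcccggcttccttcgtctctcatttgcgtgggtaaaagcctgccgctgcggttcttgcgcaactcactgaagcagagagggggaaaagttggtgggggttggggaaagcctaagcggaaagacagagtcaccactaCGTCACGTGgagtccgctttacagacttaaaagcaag
Ptgr1: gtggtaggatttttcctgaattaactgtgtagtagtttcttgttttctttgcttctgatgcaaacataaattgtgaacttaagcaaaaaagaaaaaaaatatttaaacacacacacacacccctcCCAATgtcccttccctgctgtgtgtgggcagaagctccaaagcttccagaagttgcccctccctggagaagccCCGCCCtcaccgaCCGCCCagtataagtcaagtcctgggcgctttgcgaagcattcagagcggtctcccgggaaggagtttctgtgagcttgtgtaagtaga
Slco2a1: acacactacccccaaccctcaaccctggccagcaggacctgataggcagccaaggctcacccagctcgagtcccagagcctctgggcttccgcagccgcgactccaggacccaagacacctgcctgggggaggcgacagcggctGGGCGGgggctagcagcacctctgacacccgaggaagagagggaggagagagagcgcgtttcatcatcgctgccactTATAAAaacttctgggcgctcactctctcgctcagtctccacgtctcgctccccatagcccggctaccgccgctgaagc

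The motifs searched were the TATA box with the letters TATAAA, the GC box with GGGCGG and the CCAAT box with its own letters. An E-box was read as CACGTG and the core of a cyclic AMP response element as TGACG. An AP-1 site was read as TGANTCA and an antioxidant response element as TGACNNNGC. The Ptgs1 window held none of them. The Ptgs2 window held a GC box 170 bases before the start, and TGACG and the E-box overlapped in its run of capitals 14 bases after the start. The Ptgr1 window held GC boxes 52 and 39 bases before the start and a CCAAT box farther upstream. The Slco2a1 window held a TATA box 29 bases before the start and a GC box farther upstream. Among all 32841 promoters in the table, 35.7% held a GC box, 37.4% a CCAAT box, 20.8% the cyclic AMP response core, 13.6% a TATA box, 12.4% the antioxidant response element, 7.81% an AP-1 site and 7.15% the E-box, so these are common matches and describe letters only. The windows of Ptges and Hpgd were searched as well. Ptges had GC boxes 53 and 42 bases before its start, and Hpgd a GC box 50 bases before and a TATA box 5 bases after it. Ptgis had no entry. In GENCODE vM21 (GRCm38) the genes are protein coding and span chr2:36230426-36252272 (Ptgs1, plus strand), chr1:150100031-150108227 (Ptgs2, plus), chr2:167191805-167240604 (Ptgis, minus), chr2:30889471-30929863 (Ptges, minus), chr4:58965439-58987119 (Ptgr1, minus), chr8:56294585-56321043 (Hpgd, plus) and chr9:102988712-103096002 (Slco2a1, plus). The RefSeq starts of Slco2a1, Ptges and Ptgr1 lie inside these spans, and that of Hpgd lies before its span. A gene's reads can thus come from more than one annotated start. Motif distances above are from the RefSeq start, and the Hpgd TATA box lies after that start but before the GENCODE one. Other annotated genes overlap every member but Ptgs2 and Ptgr1, and those in the tables reached at most 0.0522 CPM (counts scaled to a library total of 1000000) in tumour EC and 0.0294 CPM in LN EC.

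Of 766 wells with a cell 592 passed the filter of at least 50000 reads in genes, at least 1000 detected genes and no more than 25% of reads from mitochondrial genes. The 6 groups above had medians of 609243.5 to 1238819 reads per cell. A level below is the CPM of the summed reads of a group, with an exact Poisson 95% interval. A share is the percentage of cells with a read, with an exact Clopper-Pearson 95% interval. A share of 0 is given instead with the limit that 3 cells of the group would make. These reads were amplified by PCR without molecular identifiers, so intervals and limits cover counting error only. The tumour EC carried the endothelial marker list (summed 4565 CPM in GFP+ EC and 4471 CPM in GFP- EC), and their macrophage list was at 4.04 and 8.30 CPM in the same groups, against 25308 CPM in macrophages. Of 27 blood wells labelled as GFP+ EC 7 passed, and these went against their label: Cdh5 and Kdr were at 0 reads, all 7 had reads of at least 2 haematopoietic markers, and 5 had reads of at least 2 B cell markers. They are left out of the comparisons. The 2 wells without a cell held 59 and 82 reads, with 0 in any member.

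Ptgs1 was found most often in macrophages. It was at 24.2 CPM in tumour GFP+ EC (23.5 to 25.04), 52.4 CPM in tumour GFP- EC (50.8 to 54.02) and 230.9 CPM in macrophages (227.6 to 234.3). The shares were 9.47% of tumour GFP+ EC (5.51 to 14.9), 26.2% of tumour GFP- EC (17.2 to 36.9) and 69.1% of macrophages (57.9 to 78.9). In the LN it had 0 reads in the 98 GFP+ EC, which allows a share of up to 3.06%. It was at 34.4 CPM in GFPlow EC (33.2 to 35.6), from 2 cells, both of pool D. LN GFP- EC had 105.8 CPM (102.9 to 108.7), with reads in 31.1% of cells (20.8 to 42.9). The LN GFP- level leans on 1 cell of pool B that held 42.3% of its reads, and without that cell it was 62.8 CPM. By pool it was 58.3 CPM in pool A, 181.8 CPM in pool B and 0 in the 8 cells of pool C, so the tumour GFP- level lay between those of the pools.

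Ptgs2, the cyclooxygenase that many cells make only on stimulation, was found in few cells of any gate. It was at 14.2 CPM in tumour GFP+ EC (13.6 to 14.8), 42.04 CPM in tumour GFP- EC (40.6 to 43.5) and 8.56 CPM in macrophages (7.93 to 9.22). The number of cells with a read was 5 in tumour GFP+ EC (2.96% of cells), 12 in tumour GFP- EC (14.3%) and 11 in macrophages (13.6%). One cell on plate KM4 held 77.4% of the reads of tumour GFP+ EC, and without it their level was 3.23 CPM. In the LN 5 of 98 GFP+ EC (32.7 CPM, 31.6 to 33.9) and 1 of 79 GFPlow EC (1.07 CPM, 0.874 to 1.30) had reads, against 0 of 74 GFP- EC, which allows up to 4.05%. All 6 of these LN cells also had reads of Prox1, the transcription factor gene that marks lymphatic endothelium. So did 78 of all 98 LN GFP+ EC and 59 of all 79 LN GFPlow EC. Reads of both cyclooxygenase genes were found together in 0 LN cells. Only the GFPlow gate had cells with reads of each gene, 2 with Ptgs1 and 1 with Ptgs2. This 0 therefore says little about whether the genes exclude each other.

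Ptgis was a gene of tumour EC in these data. It was at 25.4 CPM in tumour GFP+ EC (24.6 to 26.2), with reads in 11.8% of cells (7.38 to 17.7), and at 44.7 CPM in tumour GFP- EC (43.2 to 46.2), in 20.2% of cells (12.2 to 30.4). Macrophages and the 3 LN gates had 0 reads, which allows shares of up to 3.70% in macrophages and 3.06% to 4.05% in the LN gates. The tumour GFP+ plates differed more from each other (36.5 CPM on KM3 and 14.996 CPM on KM4) than KM3 did from the GFP- plate. Ptges was rarer still. It had reads in 1 tumour GFP+ EC, 4 of 84 tumour GFP- EC, 2 of 81 macrophages and 2 of 98 LN GFP+ EC, and in 0 LN GFPlow and GFP- EC. Its highest level was 4.08 CPM in tumour GFP- EC (3.65 to 4.56), 66.8% of it from 1 cell.

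Ptgr1 was the most abundant member in tumour GFP+ EC. It was at 615.4 CPM there (611.5 to 619.3), with reads in 68.6% of cells (61.1 to 75.5). Tumour GFP- EC had 229.1 CPM (225.8 to 232.5) and reads in 38 of 84 cells (45.2%, 34.3 to 56.5). Macrophages had 46.1 CPM (44.6 to 47.6) and reads in 27 of 81 cells. Thinned to 100000 reads per cell, which left out 2 cells of each EC gate, the shares were 66.5% of GFP+ EC and 45.1% of GFP- EC, close to the unthinned ones. The median cell had 421.9 CPM on plate KM3 and 149.3 CPM on plate KM4, both GFP+, and 0 CPM on the GFP- plate KM2. In the LN it was at 141.1 CPM in GFP+ EC (138.7 to 143.5; reads in 40.8% of cells), 221.9 CPM in GFPlow EC (218.9 to 224.9; 35.4%) and 27.9 CPM in GFP- EC (26.4 to 29.4; 8.11%). By pool, the LN GFP+ level was 166.9, 131.1 and 111.2 CPM over pools A, B and C, and the GFPlow level was 248.4, 358.7 and 185.03 CPM over pools B, C and D. LN GFP- EC had 57.7 CPM in pool A, 1.46 CPM in pool B and 0 in pool C. Each LN GFP- pool lay below every GFP+ and GFPlow pool.

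Hpgd had 0 reads in tumour EC. A count of 0 allows up to 1.78% of GFP+ EC and 3.57% of GFP- EC to have had one. Macrophages had 10.7 CPM (10.035 to 11.5), with reads in 7 of 81 cells (8.64%). In the LN 2 of 98 GFP+ EC, both of pool B, had reads (7.63 CPM, 7.09 to 8.21), against 0 of 79 GFPlow EC and 0 of 74 GFP- EC. The cells that most often held the transporter and the reductase were thus without a read of the dehydrogenase between those steps.

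Slco2a1 was found in most tumour EC of both gates. It was at 359.2 CPM in tumour GFP+ EC (356.2 to 362.2), with reads in 75.15% of cells (67.9 to 81.5), and at 298.3 CPM in tumour GFP- EC (294.5 to 302.2), with reads in 71.4% (60.5 to 80.8). Thinned, the shares were 71.9% of GFP+ EC and 71.95% of GFP- EC. Macrophages had 5 reads in all, in 1 of 81 cells (0.0624 CPM, 0.0203 to 0.146). In the LN it was the reverse of Ptgr1: 1 of 98 GFP+ EC had reads (2.12 CPM, 1.84 to 2.44), 0 of 79 GFPlow EC did, and 24 of 74 GFP- EC did (32.4%), at 196.6 CPM (192.6 to 200.6). The LN GFP- level was 240.7 CPM in pool A, 187.2 CPM in pool B and 23.9 CPM in pool C, where 1 of 8 cells had reads. The LN GFP+ level was 0 in pools A and B and 7.41 CPM in pool C.

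Compared per length of transcript, in CPM per kilobase of the principal transcript, the members of tumour GFP+ EC stood in the order Ptgr1 (327.7 on plate KM3 and 212.2 on plate KM4), Slco2a1 (50.4), Ptgis (12.04), Ptgs1 (8.46), Ptgs2 (3.19), Ptges (0.277) and Hpgd (0). The same levels in tumour GFP- EC were 99.8 for Ptgr1, 41.9 for Slco2a1, 21.2 for Ptgis, 18.3 for Ptgs1, 9.44 for Ptgs2, 1.12 for Ptges and 0 for Hpgd. Ptgis stood above Ptgs1 on both GFP+ plates (17.3 and 10.6 per kilobase on KM3, 7.12 and 6.42 on KM4) and on the GFP- plate. Taken as ratios, these gaps were smaller than that of either gene between the GFP+ plates, on KM3 only narrowly for Ptgs1.

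**Figure D1:**
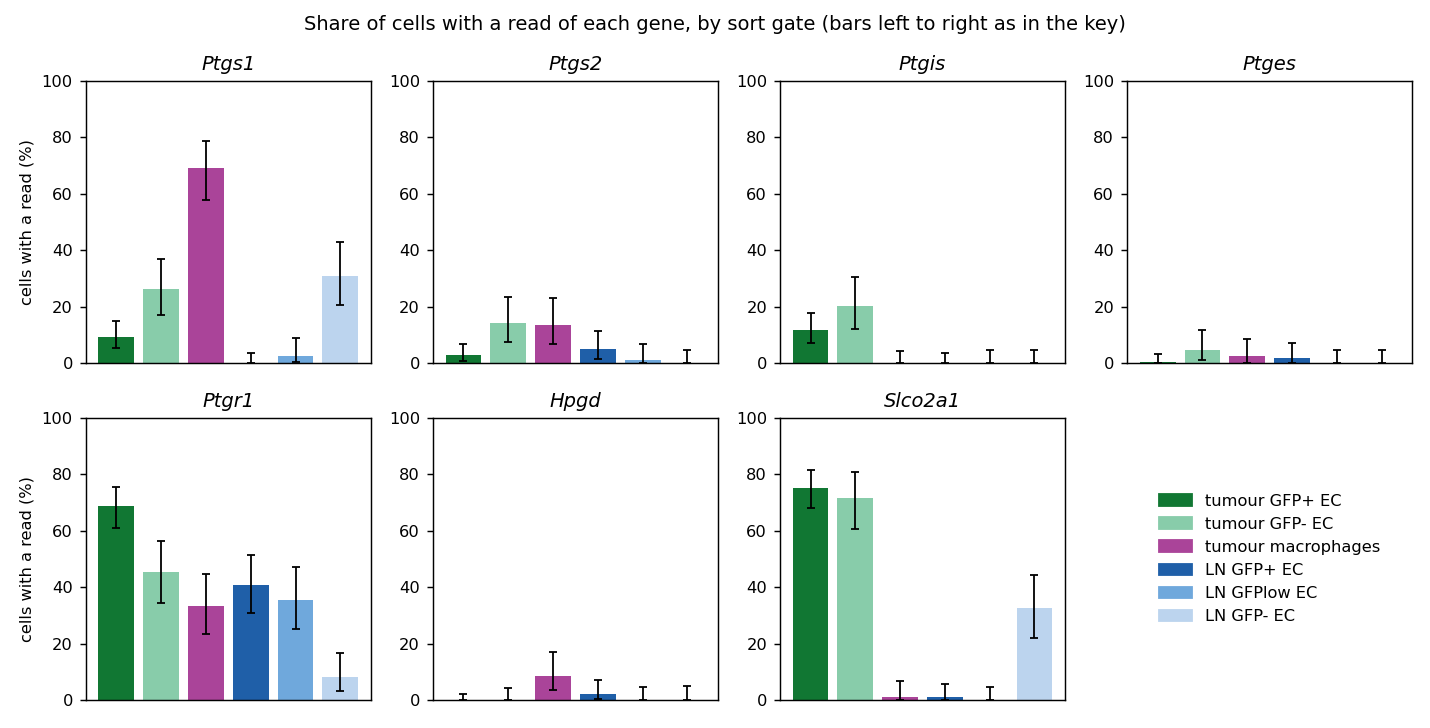
Share of cells with at least 1 read (percent) of each of the 7 genes in the 6 sort gates, with bars in the order of the key and error bars for exact 95% binomial intervals. Slco2a1 and Ptgr1 have the tallest bars in tumour EC, Ptgs1 in macrophages, and LN GFP- EC differ from the other LN gates in Ptgs1, Ptgr1 and Slco2a1.

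The bars of this plot carry counting error over cells only. Levels on single plates and pools are plotted next for Ptgs1, Ptgis, Ptgr1 and Slco2a1.

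**Figure D2:**
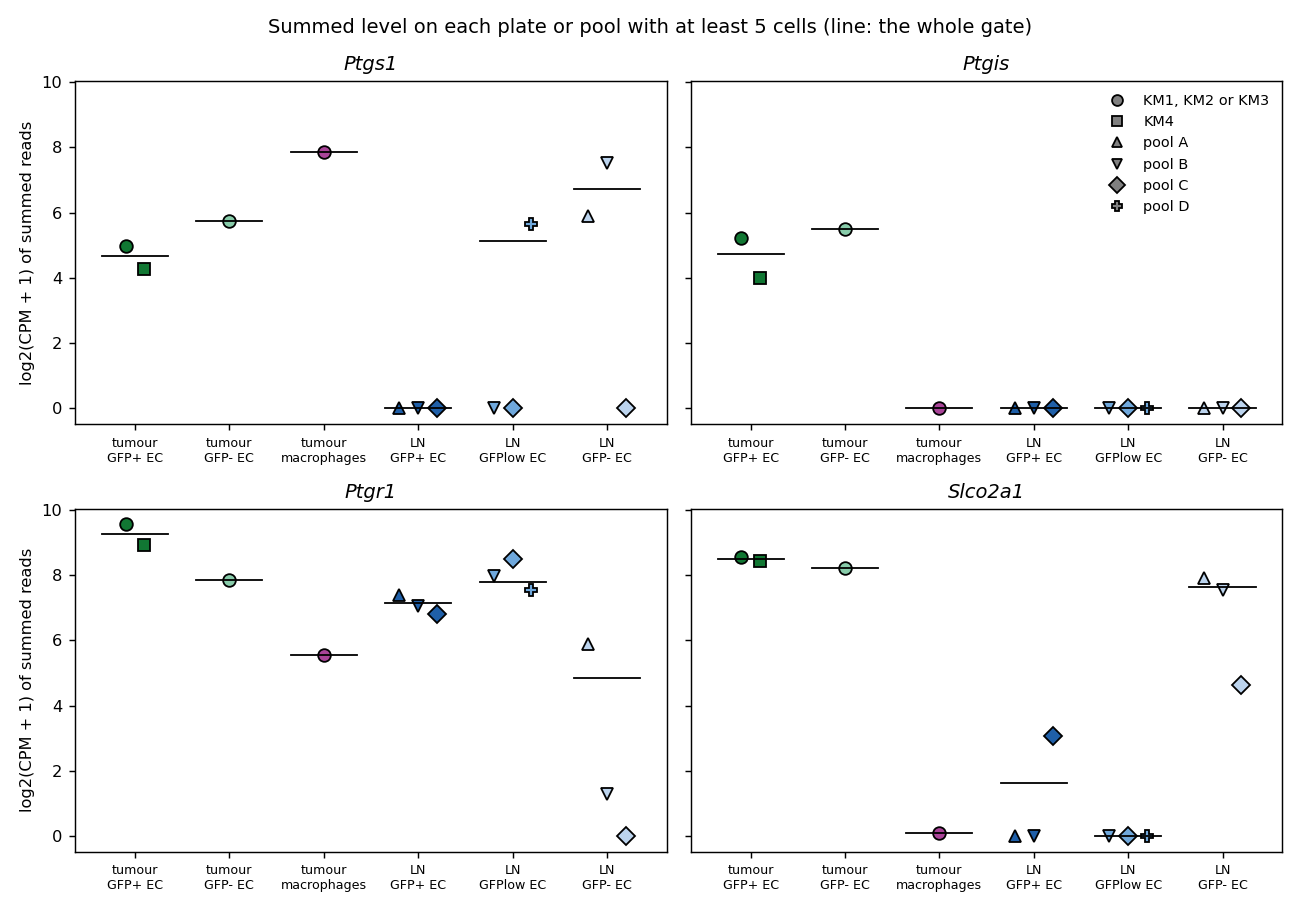
Level of Ptgs1, Ptgis, Ptgr1 and Slco2a1, as log2(CPM + 1) of summed reads, on each plate or pool with at least 5 cells, with a line at the level of the whole gate. Ptgr1 is lower in each LN GFP- pool than in any GFP+ or GFPlow pool, Slco2a1 is higher in each LN GFP- pool than in any GFP+ or GFPlow pool, and Ptgis is at 0 outside tumour EC.

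Tumour GFP+ EC were set against tumour GFP- EC to ask how EC marked by the Csf1r lineage differ from the other EC of the same tissue. Ratios are log2 of the CPM with 1 CPM added to each, and a gene counts as measured where one group had 1 CPM or more and a read in 5% or more of its cells. Of 5 measured members 1 was at least 2-fold higher in GFP+ EC and 2 were at least 2-fold lower, where 15.2% of all 10971 measured genes were at least 2-fold apart (6.95% higher and 8.25% lower). Ptgr1 was higher, with a ratio of 1.42 (1.39 to 1.45), and with 1.71 on plate KM3 and 1.09 on plate KM4 against the GFP- plate. Ptgs1 (-1.08) and Ptgs2 (-1.50) were lower, and Ptgis (-0.79) and Slco2a1 (0.27) were within 2-fold. The members' median was -0.79, beside -0.12 over all measured genes. On plate KM3 alone the ratio of Ptgs1 was -0.76, that of Ptgs2 -5.37 and that of Ptgis -0.29. On plate KM4 alone they were -1.46, -0.60 and -1.51. Averaged over cells instead of summed, Ptgs2 had a ratio of -0.63. Thus the lower level of Ptgs1 and Ptgs2 was at least 2-fold on 1 GFP+ plate each. The gates were sorted to different plates, so plate and gate cannot be told apart.

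Synthesis genes were also counted per cell. The median GFP- EC had 3825 detected genes and the median GFP+ EC 3064, at medians of 827490 and 805864 reads. The part of this difference in the shares below was not tested, and thinning reads does not remove it. At least 1 cyclooxygenase gene had reads in 20 GFP+ EC (11.8%) and 29 of 84 GFP- EC (34.5%), or in 11.4% and 35.4% of thinned cells of the same gates. A cyclooxygenase and a terminal synthase gene were found together in 5 GFP+ EC (2.96%) and 11 of 84 GFP- EC (13.1%). Among thinned GFP- EC, 8 of 15 cells with Ptgis reads also had Ptgs1 reads, against 13 of 67 cells without Ptgis reads. All 3 thinned GFP- EC with Ptges reads had Ptgs1, Ptgis and Slco2a1 reads as well. Clearance genes without any cyclooxygenase read were the usual state of GFP+ EC (78.7% of cells) and were found in 41 of 84 GFP- EC (48.8%). Ptgr1 and Slco2a1 were found together in 51.5% of thinned GFP+ EC and 35.4% of thinned GFP- EC.

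**Figure D3:**
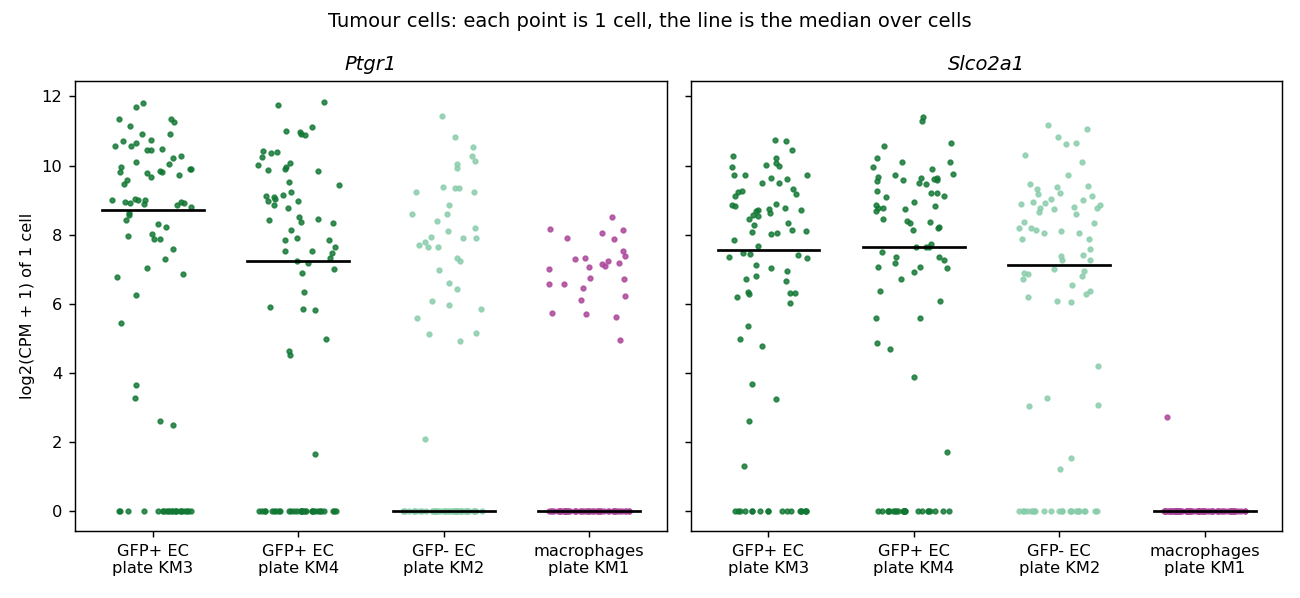
Level of Ptgr1 and Slco2a1 in single tumour cells, as log2(CPM + 1), by plate, with a line at the median cell. For Ptgr1 the median cell is above 0 on both GFP+ plates and at 0 on the GFP- plate and in macrophages, whereas for Slco2a1 the medians of the 3 EC plates lie close together and macrophages are at 0 but for 1 cell.

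Clusters of the tumour EC, formed without the members, the other pathway genes and the markers, show where these cells stood. Of the 8 clusters, the share of cells with Slco2a1 reads was 51.7% to 91.3% in each. Ptgr1 was at 870.3 CPM in cluster 7 (led by Ubn2 and Braf), 799.7 CPM in cluster 2 (Igfbp5, Pmp22), with reads in 34 of 40 cells, and 648.6 CPM in cluster 6, led by the mitosis genes Ckap2, Top2a and Cenpf. It was at 157.7 CPM in cluster 1 (Scgb3a1, Mgp) and 175.3 CPM in cluster 5 (Golgb1, Adm). Ptgis had reads in 26.1% of cells of cluster 7, 23.3% of cluster 4 and 22.7% of cluster 1, and in 1 of 38 cells of cluster 3, which is led by Thbs1, Esm1 and Fabp4. Cluster 3 was 35 GFP+ and 3 GFP- cells, and cluster 4 (Pja1, Tgfbi) was 6 GFP+ and 24 GFP- cells, so the gates filled the clusters unequally. Within clusters holding at least 5 cells of each gate, Ptgr1 was higher in GFP+ than in GFP- cells in 5 of 7. The 5 were clusters 2 (837.0 CPM in GFP+ cells and 646.5 CPM in GFP- cells), 4 (282.2 and 189.4 CPM), 6 (792.3 and 131.2 CPM), 7 (1015 and 260.6 CPM) and 8 (492.8 and 198.5 CPM). It was lower in GFP+ cells in clusters 1 (148.7 and 168.2 CPM) and 5 (89.5 and 314.97 CPM). The share of cells with a read went the other way in both. It was 52.4% of GFP+ and 30.4% of GFP- cells in cluster 1, and 47.4% and 20% in cluster 5. The GFP- side of clusters 2, 6, 7 and 8 rests on 5 to 7 cells. With plate KM4 alone as the GFP+ side Ptgr1 was higher in 3 of 7 clusters, since clusters 2 (527.95 CPM in GFP+ cells and 646.5 CPM in GFP- cells) and 8 turned. In cluster 8 the share of cells with a read was 35.7% in GFP+ cells and 50% in GFP- cells.

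**Figure D4:**
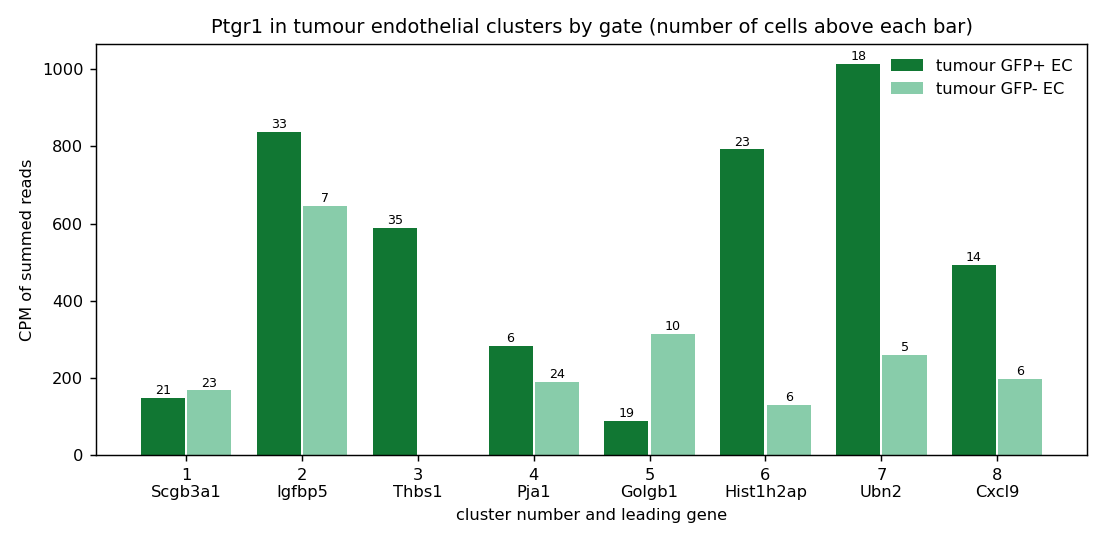
Level of Ptgr1 (CPM of summed reads) in 8 tumour EC clusters, in GFP+ cells (left bar) and GFP- cells (right bar), with the number of cells above each bar; groups under 5 cells have no bar. GFP+ bars are taller in clusters 2, 4, 6, 7 and 8 and shorter in clusters 1 and 5, but with plate KM4 alone as the GFP+ side clusters 2 and 8 turn.

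Other genes of the pathway were listed by role. Of 22 measured genes 0 were at least 2-fold higher in GFP+ EC, 3 were lower and 19 were within 2-fold, with a median of -0.36, where 15.2% of all measured genes were at least 2-fold apart. The 3 are Pla2g4a, the phospholipase that frees arachidonic acid (20.98 CPM in GFP+ EC and 45.6 CPM in GFP- EC, a ratio of -1.09), Daglb (1.503 and 5.53 CPM, -1.38) and Cbr3 (3.66 and 11.2 CPM, -1.39). They were named after their values were seen.

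Tumour EC and macrophages of the same tissue divided the members between them. Of 6 measured members 3 were at least 2-fold higher in GFP+ EC than in macrophages and 2 lower, where 44% of all measured genes were at least 2-fold apart (24.2% higher and 19.7% lower). Of 6 members in GFP- EC 4 were higher and 2 lower, where 46.9% of genes were apart (27.5% higher and 19.3% lower). The comparisons share the macrophages, so they are not independent. Slco2a1 had ratios of 8.41 in GFP+ EC and 8.14 in GFP- EC over macrophages. By reads, Ptgis was at least 678-fold higher in GFP+ EC and at least 1194-fold higher in GFP- EC, against a floor of 3 reads over the macrophages. Such a fold bounds amplified reads and not the difference in cells. Ptgis was found in 11.8% of GFP+ EC and 20.2% of GFP- EC, and 0 macrophages allows up to 3.70%. Ptgr1 had ratios of 3.71 and 2.29 for the same EC gates. Ptgs1 was lower in EC, with ratios of -3.20 in GFP+ EC and -2.12 in GFP- EC. By reads, Hpgd was at least 545.5-fold lower in GFP+ EC, against a floor of 3 reads over those EC, and had 0 reads in GFP- EC as well (-3.55). By cells, Hpgd was found in 7 of 81 macrophages, and its 0 allows up to 1.78% of GFP+ EC and 3.57% of GFP- EC. Ptgs2 gives no stable order: its ratio was 0.67 for GFP+ EC over macrophages and 2.17 for GFP- EC, and it was -3.20 with plate KM3 and 1.57 with plate KM4 as the GFP+ side. The members' medians were 2.19 in GFP+ EC and 2.23 in GFP- EC, beside 0.08 and 0.21 over all measured genes.

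Of the other terminal synthases 4 of 7 measured were at least 2-fold lower in GFP+ EC than in macrophages and 3 of 7 in GFP- EC, and the rest were within 2-fold. Of the receptors 4 of 6 were lower and 1 higher in GFP+ EC, and 4 of 5 were lower in GFP- EC. The receptor that was higher was Tbxa2r, the thromboxane receptor, with 11.96 CPM in GFP+ EC and 0 reads in macrophages. Its reads were in 10.1% of GFP+ EC, under the 25% asked of other named genes. Pla2g7, a phospholipase that breaks down platelet-activating factor, was at 0.0197 CPM in GFP+ EC and 1030 CPM in macrophages. Hpgds, a prostaglandin D synthase, was at 1.06 CPM in GFP+ EC, 0 in GFP- EC and 160.1 CPM in macrophages. Tbxas1, thromboxane synthase, was at 0.328 CPM in GFP+ EC, 2.13 CPM in GFP- EC and 170.5 CPM in macrophages. Ptger4, a prostaglandin E receptor, had 1 read in GFP+ EC and 0 in GFP- EC and was at 77.7 CPM in macrophages. Alox5ap, which helps lipoxygenase start leukotriene synthesis, was at 5.72, 5.84 and 573.6 CPM in the same order. The EC held more Abcc4, an exporter of prostaglandins (101.4 CPM in GFP+ EC, 112.3 CPM in GFP- EC and 14.2 CPM in macrophages), more Lta4h (142.9, 194.6 and 25.1 CPM) and Mgll, a lipase of monoacylglycerols (58.7 and 46.6 CPM, against 0 reads in macrophages). Over all lists, 5 of 33 measured genes were at least 2-fold higher and 16 lower in GFP+ EC. In GFP- EC 6 of 32 were higher and 14 lower. Beside these counts, 24.2% of all measured genes were higher and 19.7% lower in GFP+ EC. For GFP- EC the shares were 27.5% higher and 19.3% lower. The macrophages filled a plate of their own.

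LN GFP+ EC were set against LN GFP- EC of the same pools. All 4 measured members were at least 2-fold apart, 2 higher and 2 lower in GFP+ EC, where 39.3% of 11140 measured genes were apart (20.1% higher and 19.2% lower). Ptgr1 was higher, with a ratio of 2.30, and 1.52 in pool A, 5.75 in pool B and 6.81 in pool C. One GFP- cell of pool A held 56.1% of the GFP- reads, and without the highest cell of each gate the ratio was 3.25. Ptgs2 was at least 519.6-fold higher by reads. By cells, Ptgs2 was found in 5 of 98 GFP+ EC (5.10%) and 0 of 74 GFP- EC, which allows up to 4.05%. Of its reads 48.02% came from 1 cell, without which the level was 17.3 CPM, and pool C had 0 reads in both gates. Ptgs1 was at least 3353-fold lower by reads, with 0 reads in GFP+ EC of any pool and reads in 31.1% of GFP- EC. Slco2a1 had a ratio of -5.98 overall and -7.92 in pool A, -7.56 in pool B and -1.57 in pool C. The members' median was -1.84, beside 0.04 over all measured genes.

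In the same comparison of gates, several marker lists also differed. The lymphatic endothelial list summed to 1240 CPM in GFP+ EC and 5497 CPM in GFP- EC. At least 2 of its markers had reads in 85.7% of GFP+ EC and 44.6% of GFP- EC. The high endothelial venule list summed to 3662.5 CPM in GFP+ EC and 4823 CPM in GFP- EC, with at least 2 markers in 85.7% and 37.8% of cells. This list shares Glycam1 with the sinus floor list. Among the LN clusters below, only cluster 8, with 0 GFP+ EC, held all 5 venule markers. The blood endothelial list summed to 2266 CPM in GFP+ EC and 8893 CPM in GFP- EC. The sinus floor list of LN lymphatics summed to 8652 CPM in GFP+ EC and 3336 CPM in GFP- EC, and the sinus ceiling list to 135.6 CPM in GFP+ EC and 2530 CPM in GFP- EC. The platelet list, 658.0 CPM in GFP+ EC and 18.1 CPM in GFP- EC, was at 0 reads of Gp9 and Gp1bb in GFP+ EC. It shares Itga2b with the sinus floor list. The macrophage list was at 70.6 CPM in GFP+ EC and 9.48 CPM in GFP- EC. The fibroblast or pericyte list was at 282.6 CPM in GFP+ EC and 26.4 CPM in GFP- EC, with Pdgfrb and Pdgfra at 0 reads in both. The part of these cells in the members' values was not tested beyond the clusters below.

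Of all measured genes 20.1% were at least 2-fold higher in LN GFP+ EC than in LN GFP- EC and 19.2% lower. Of the other pathway genes, 9 of 28 measured were higher and 8 lower by the same limit. Higher were Ptger4 (146.9 CPM in GFP+ EC and 24.1 CPM in GFP- EC), Ltc4s, leukotriene C synthase (89.8 and 25.4 CPM), Ppard, a nuclear receptor (18.9 and 4.70 CPM), Daglb, a diacylglycerol lipase (273.8 and 88.3 CPM), and Fam213b, a prostaglandin F synthase (55.1 and 22.6 CPM). Lower were Mgll, with 0 reads in GFP+ EC and 253.5 CPM in GFP- EC, and Slco2b1, an organic anion transporter (70.5 and 343.98 CPM).

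LN GFPlow EC, like LN GFP+ EC, often held Ptgr1, and few or none of them had reads of Ptgs1 (2 of 79 cells) or Slco2a1 (0 cells). They were compared in pools B and C, where each gate was sorted, with 29 GFPlow EC, 34 GFP- EC and 55 GFP+ EC. All 3 members measured against GFP- EC were at least 2-fold apart, where 55.8% of all measured genes were (25.3% higher and 30.5% lower). Ptgr1 was higher (307.3 CPM in GFPlow EC and 1.19 CPM in GFP- EC, 7.14). By reads, Ptgs1 was at least 1418-fold lower and Slco2a1 at least 1502-fold lower, both with 0 reads in GFPlow EC. By cells, 29.4% of these GFP- EC had Ptgs1 reads and 26.5% had Slco2a1 reads. The Ptgs1 contrast came from pool B, since pool C had 0 Ptgs1 reads in either gate, and 1 cell held 57.2% of the GFP- reads of pool B. The median was -7.22, beside -0.05 over all measured genes. This median is the ratio of Ptgs1, whose size depends on the 1 CPM added, and without pool B that ratio was 0.00. Of the GFPlow Ptgr1 reads in pool B 71.6% came from 1 of 15 cells. Against GFP+ EC 1 member was measured, Ptgr1, and it was at least 2-fold higher in GFPlow EC (307.3 CPM, against 120.9 CPM in GFP+ EC, 1.34), where 45.9% of all measured genes were apart (20.5% higher and 25.4% lower). A read was found in 11 of 29 GFPlow EC and 22 of 55 GFP+ EC, and without the highest cell of each gate Ptgr1 was within 2-fold.

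Sorting LN cells by reads of Prox1, whatever their GFP, gave ratios that went both ways between pools. The cells with Prox1 reads were 78 GFP+, 59 GFPlow and 27 GFP- EC, and 87 cells had none. Between these classes 1 of 3 measured members was at least 2-fold apart, where 27.6% of all measured genes were (16.4% higher and 11.1% lower). Slco2a1 was lower in cells with Prox1 reads (29.7 CPM, against 68.5 CPM in those without, -1.18). That ratio rests on pool B: it was 0.93 in pool A, -3.93 in pool B and -0.16 in pool C, and without pool B it was 0.49. Ptgs1 (28.7 CPM with Prox1 reads and 51.7 CPM without) and Ptgr1 (157.3 and 133.2 CPM) were within 2-fold over all pools, and the median of the members was -0.83, beside 0.09. By pool the ratio of Ptgr1 was 2.09 in A, -0.90 in B, -1.23 in C and 1.88 in D. Within LN GFP- EC, Slco2a1 was found in 9 of 27 cells with Prox1 reads and 15 of 47 without, Ptgs1 in 7 of 27 and 16 of 47, and Ptgr1 in 6 of 27 and 0 of 47. Ptgr1 in LN GFP- EC thus came only from cells with Prox1 reads. Among GFP+ EC Ptgr1 reads were in 33 of 78 cells with Prox1 reads and 7 of 20 cells without.

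Clusters of the LN cells, again formed without these genes, placed Ptgs1 and Slco2a1 in blood and sinus ceiling-like EC and Ptgr1 mainly elsewhere. Cluster 4 (29 cells, all GFP-), led by Cxcl12, Sox17 and Esm1 and holding all 7 blood endothelial markers, is called blood endothelial-like. In it Slco2a1 was at 277.2 CPM in 48.3% of cells (29.4 to 67.5), Ptgs1 in 24.1% (10.3 to 43.5) and Ptgr1 in 0 cells. Cluster 8 (19 cells, 17 GFP- and 2 GFPlow), led by Ccl21a, Chst4 and Fut7 and holding all 5 markers of high endothelial venules, the vessels through which lymphocytes enter the node, is called high endothelial venule-like. Here Ptgs1 was at 231.2 CPM in 52.6% of cells (28.9 to 75.6), Slco2a1 at 8.46 CPM in 2 cells and Ptgr1 in 0 cells. Cluster 5 (25 cells, 22 GFP- and 3 GFPlow), led by Ackr4, Thy1 and Cd36 and holding all 5 sinus ceiling markers, had Prox1 reads in 22 of 25 cells. In this sinus ceiling-like cluster Slco2a1 was at 236.4 CPM in 8 of 25 cells, Ptgs1 at 197.2 CPM in 7 cells and Ptgr1 at 62.3 CPM in 4 cells.

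The other 5 LN clusters (49, 45, 40, 24 and 20 cells) each held at least 5 of 6 sinus floor markers and were led by Cxcl10, Coch, Micall1, Csnk2a2 and a group of predicted genes. Ptgr1 was found in 70 of these cells (39.3%, 32.1 to 46.9), at 184.5 CPM, and by cluster in 6 of 24 to 23 of 49 cells. Ptgs1 and Slco2a1 were each found in 1 cell of these clusters (0.562%). All 6 LN cells with Ptgs2 reads lay here, as did every LN GFP+ EC and most GFPlow EC. Of these 6, 5 were in the cluster led by Cxcl10 and Socs1 (54.6 CPM). In the blood endothelial-like and high endothelial venule-like clusters together, Ptgr1 had 0 reads in 48 cells, which allows a share of up to 6.25%. The split between blood-type and sinus floor-type cells was present in both larger pools: Slco2a1 was found in 7 of 16 cells of cluster 4 in pool A and 7 of 12 in pool B. Ptgs1 was found in 7 of 12 cells of cluster 8 in pool A and 2 of 2 in pool B. In the sinus ceiling-like cluster Slco2a1 was found in 7 of 12 cells in pool A and 1 of 8 in pool B, so its level there rests mostly on pool A. Ptgs1 in the same cluster was at 27.6 CPM in pool A, 267.2 CPM in pool B and 0 in pool C, and at 615.6 CPM in the 2 cells of pool D. Of the 8 macrophage markers, Adgre1 was at 0 reads in clusters 4, 5 and 8, and C1qa, C1qb, Lyz2 and Csf1r were at or under 0.128 CPM. Tyrobp reached 11.03 CPM in cluster 4, Mrc1 2.83 CPM in cluster 5 and Cd68 3.17 CPM in cluster 8, and their part in the result was not tested. Of the platelet markers, Pf4 was at 15.4 CPM and Itga2b at 113.4 CPM in the high endothelial venule-like cluster, and Ppbp, Gp9 and Gp1bb were at 0 reads there.

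**Figure D5:**
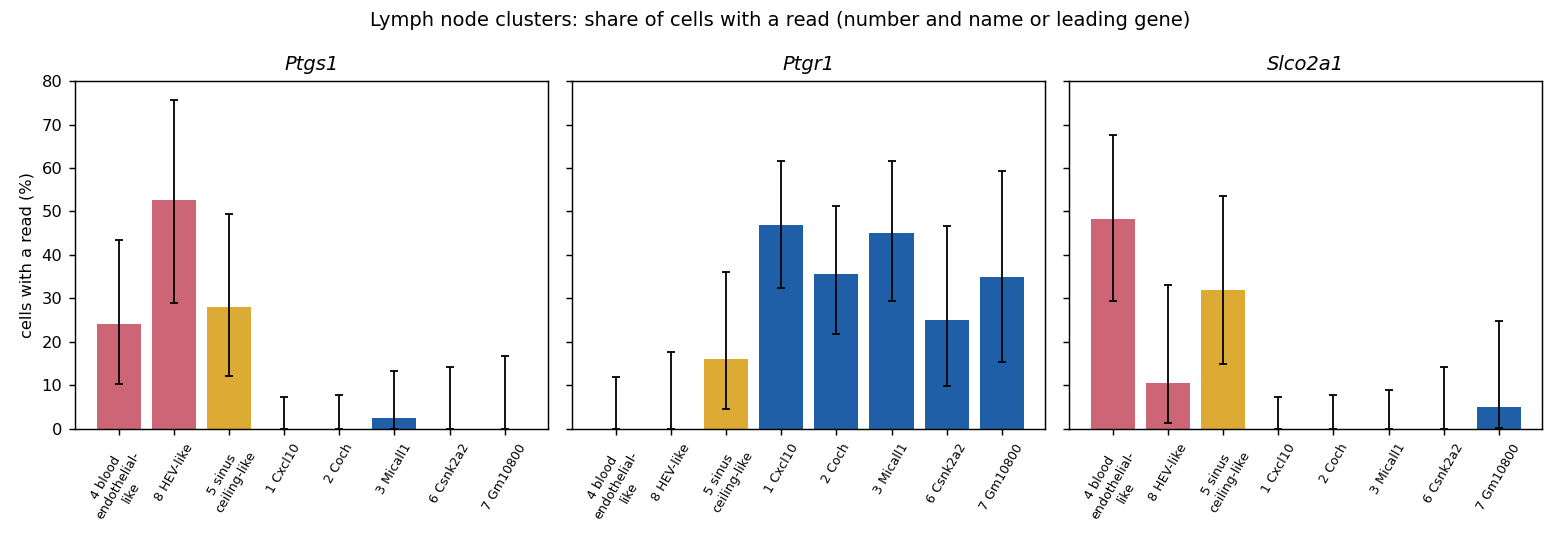
Share of cells (percent) with a read of Ptgs1, Ptgr1 and Slco2a1 in 8 LN clusters, with exact 95% binomial intervals; red bars are clusters with blood endothelial markers (HEV is high endothelial venule), yellow the sinus ceiling-like cluster and blue the clusters with sinus floor markers, given by number and leading gene. The tallest bars of Ptgs1 and Slco2a1 are red or yellow and those of Ptgr1 are blue.

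GFP- EC of the tumour were set against GFP- EC of the LN, which asks how the members differ between the tissues without the lineage mark. The tumour cells came from plate KM2 and the LN cells from pools A, B and C. Tissue and plate or pool therefore cannot be told apart. Of 5 measured members 3 were at least 2-fold higher in the tumour and 1 lower, where 46.4% of 11454 measured genes were apart (25.5% higher and 20.9% lower). Ptgr1 was higher (229.1 CPM in tumour and 27.9 CPM in LN, 2.99). By reads, Ptgs2 was at least 668.3-fold higher and Ptgis at least 710.2-fold higher, both against 0 reads in the LN. By cells, they were found in 14.3% and 20.2% of tumour cells, and 0 LN cells allows up to 4.05%. Ptgs1 was just past the limit of 2-fold (52.4 CPM in tumour and 105.8 CPM in LN, or 0.495 times the LN level), and without pool B its log2 ratio was 0.11. Slco2a1 was within 2-fold (298.3 and 196.6 CPM, 0.60), although 71.4% of tumour cells and 32.4% of LN cells had reads. The median was 2.99, beside 0.14 over all measured genes. Tumour GFP- EC had 0 reads of Prox1 and LN GFP- EC had them in 36.5% of cells, so the tissues differ in lymphatic cells too, whose part in these values was not tested. Mgll and Daglb were lower in the tumour (46.6 CPM and 253.5 CPM for Mgll, 5.53 CPM and 88.3 CPM for Daglb, tumour given before LN). Abcc4 (112.3 CPM in tumour and 40.9 CPM in LN) and Ptges3, a co-chaperone also named as a prostaglandin E synthase (185.2 and 54.2 CPM), were higher. Pla2g4a, named after its values were seen, was at 45.6 CPM in tumour and at 0 reads in LN. Over all lists 7 of 28 measured genes were higher and 11 lower.

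The genes whose level most resembled a member's were sought over 13 units, each a gate on 1 plate or pool, among 7113 genes that reached 20 CPM and a read in 25% of cells in some unit. The measure was Pearson's r of log2(CPM + 1), given as a description because the units share plates, pools and depth. Slco2a1 was most like Adgrl2 (0.984), Piezo2 (0.957) and Sparcl1 (0.957). Ptgis was most like Foxf2 (0.991), Scgb3a1 (0.990) and Akr1b8 (0.989). It had reads on the tumour EC plates only and itself reached 20 CPM and 25% of cells in 0 units. Its values of r thus mainly set those plates against the other units. Ptgr1 was most like Qars (0.925), Rbm27 (0.922) and Selenon (0.916), and Ptgs1 most like Cerk (0.928), Tuba1c (0.927) and Grk6 (0.919). Hpgd, found in 2 units, was most like Tnfsf9 (0.944), Tlr1 (0.907) and Hpgds (0.874). The best values for Ptgs2 (Dbf4, 0.802) and Ptges (Dbf4, 0.780) were lower.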

How the data were processed

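Single cells were sorted into 96-well plates and amplified by a modified SMART-seq2 protocol with 20 cycles, which reads along whole transcripts, and Nextera XT libraries were made, per the labels' protocols. The deposited tables hold counts of reads per gene made by the authors, with no normalization seen in the values, which are whole numbers. FastQC 0.11.4, the aligner STAR 2.4.1b, the package Subread 1.4.6-p2 and the build mm10 were used, per the submitters' processing notes. Strand is not given in the sources used here, so reads of a gene and of an antisense gene cannot be told apart. All 768 wells were matched to a label by plate and well, and 92 rows that shared a symbol were summed into it.

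From the counts, cells were filtered, summed per group and scaled to CPM, and shares were also computed after each cell was thinned to 100000 reads (Python 3.11.15, numpy 2.4.6, scipy 1.17.1). Doublets were not searched for, since each well was meant to receive 1 cell. A fold against a group with 0 reads uses a floor of 3 reads over that group, so it bounds amplified reads of the sampled cells only. The step was tested on simulated data with known fold changes. TMM factors came from edgeR 4.0.16, used for scaling only. Cells were clustered with scanpy 1.11.5 (2000 variable genes, 20 principal components, 15 neighbours, Leiden resolution 1), separately for tumour EC and LN EC. A marker counted as held by a cluster with reads in at least 30% of its cells.

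The 7 members were always named. Other pathway genes were named from those measured, at least 2-fold apart and in at least 25% of cells of the higher group, and not all of these are named. Exceptions are Tbxa2r and the genes said to be named after their values were seen. For likeness 3 genes were named per member, other than Gm and Rik names, ribosomal and mitochondrial genes and pseudogenes. The members, lists and comparisons were chosen with earlier results of these data known. Alternatives were other cell filters, the mean of per-cell CPM, thinned cells, pseudocounts of 5 and 0.1 CPM, TMM, no filter on low values, each plate or pool left out, and Prox1 reads in thinned cells. Leaving out each member's highest cell was added after seeing the data. No prostaglandin was measured, so levels refer to RNA only.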

Additional observations from a re-analysis of the deposited data

Results flagged for a closer look

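Slco2a1 stood differently between the GFP gates in the tissues. Its log2 ratio of GFP+ over GFP- EC was 0.27 in the tumour and -5.98 in the LN, a difference of 6.25. The difference was not tested, because each gate of each tissue is 1 sample. On plates and pools, tumour GFP+ EC had 378.6 and 341.1 CPM, against 298.3 CPM in tumour GFP- EC, and LN GFP+ EC had 0, 0 and 7.41 CPM in pools A, B and C, against 240.7, 187.2 and 23.9 CPM in LN GFP- EC.

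Reads of Ptgr1 and Hpgd were also found among the 7 blood cells that the comparisons leave out, above the 0 reads of the wells without a cell. Ptgr1 was at 1029 CPM (1001 to 1058), with reads in 4 of the 7 cells at 431.2, 916.3, 1533 and 4204 CPM, and all 4 also had Cd79a reads, a B cell gene (810.2 to 2092 CPM). Hpgd was at 13.5 CPM (10.5 to 17.2), from 1 cell, which had Lyz2 and Ptprc reads and 0 reads of Cd79a.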

How the results depend on the processing

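The number of members at least 2-fold apart stayed within 1.5 times its value in 81 of 91 settings, and all 10 exceptions lay in comparisons with 1 member apart. This limit lets a number of 3 pass at 2 or 4, so it says little about the stability of single members. In tumour GFP+ over GFP- EC the number ranged from 2 to 4. For LN GFPlow over GFP+ EC it was 3 with a stricter cell filter, 4 without the filter on low values, 2 without pool B, 2 without pool C and 0 without each member's highest cell. For LN EC with Prox1 reads over those without, it was 0 with a stricter cell filter, 2 by the mean of per-cell CPM, 3 without the filter on low values, 0 with Prox1 reads taken in thinned cells and 0 without each highest cell. Without pool B the ratio of Slco2a1 in the Prox1 comparison was 0.49 in place of -1.18, and that of Ptgs1 in tumour over LN GFP- EC was 0.11 in place of a level 0.495 times that in the LN; the cause was not tested. Without pool B the ratio of Ptgs1 in LN GFPlow over GFP- EC was 0.00 in place of -7.22. TMM scaling shifted all genes by 0.14 in tumour GFP+ over GFP- EC, under which Ptgs1 was within 2-fold at -0.95, by -0.18 in tumour GFP- EC over macrophages, and by -0.12 in GFPlow over GFP+ and in tumour over LN GFP- EC. Ratios of single members often changed in size with the setting, and some crossed 0. That of Ptgs2 ranged from -5.37 to -0.60 in tumour GFP+ over GFP- EC and from -3.20 to 1.57 in tumour GFP+ EC over macrophages. The ratio of Ptgr1 kept its sign in both GFP+ over GFP- comparisons. It ranged from 1.09 to 1.71 in the tumour and from 1.58 to 5.80 in the LN. No paired test was run, because the labels do not tie cells to animals. LN gates that share a pool were compared within it by their ratios. Ptges, Hpgd and Ptgs2 were found in at most 12 cells of any EC gate. Ptgs2 was still found in 12 tumour GFP- EC and 5 LN GFP+ EC after thinning. In tumour GFP+ EC it was found in 5 cells before thinning and 3 after.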
